A study of Mus musculus with 12 samples.

Results

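The 10 genes described here make proteins that join mitochondria, divide them and mark them for removal. Their symbols, Mfn1, Mfn2, Opa1, Dnm1l, Fis1, Mff, Pink1, Bnip3, Bnip3l and Fundc1, were matched through Ensembl identifiers to the mouse annotation of GRCm38. All 10 were found among the 55487 genes of each count table, and all 10 passed the filter on low counts in both experiments. Mitochondria form a network that is remade by fusion and fission. Mitofusins on the outer membrane and OPA1 on the inner membrane join mitochondria, whereas the GTPase DRP1, recruited by adaptor proteins on the outer membrane, divides them. Mitophagy removes mitochondria through autophagosomes, either after the kinase PINK1 has marked a damaged organelle or through receptors on its surface that bind autophagosome proteins. All 10 are annotated as protein coding. On GRCm38 the other 8 besides Dnm1l and Bnip3 lie at chr3:32529465-32579239 (Mfn1), chr4:147873599-147904704 (Mfn2), chr16:29579334-29654884 (Opa1), chr5:136953275-136966234 (Fis1), chr1:82724890-82752394 (Mff), chr4:138313409-138326307 (Pink1), chr14:66985239-67008877 (Bnip3l) and chrX:17556564-17572325 (Fundc1).

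The study asked how macrophages and their mitochondria act on mesenchymal stem cells (MSCs) when bone is lost. RNA-seq was measured in bone marrow macrophages (BMMs), grown with macrophage colony-stimulating factor from the leg bones of female C57BL/6 mice after ovariectomy (OVX), a model of estrogen loss, or after a sham operation, with 3 libraries each. It was also measured in C57BL/6 MSCs, adherent marrow cells purified by passage and not by sorting. One group had no partner cells (MSC). Another faced RAW264.7 cells, a mouse macrophage line, through a transwell membrane (MSC+RAW-TW), and in the last the facing RAW264.7 cells had been stimulated with lipopolysaccharide (MSC+RAW-LPS-TW). Each group has 2 libraries. The labels give limbs as the tissue and an age of 8 weeks for all 12 libraries and name no other allele or agent. Nothing in them says that replicates came from separate animals or cultures, so the p-values measure the spread between these samples, which may be technical.

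Library totals ran from 17012923 to 45367105 counts. Sham replicates 2 and 3 stood closer to each other than other replicates did, and so did both MSC+RAW-TW libraries, whose column headers carry the same number. The chi-square between their counts, as a ratio to the value sampling alone would give, rose only from 2.58 at low counts to 2.86 at high counts for the sham pair and from 3.03 to 3.46 for the MSC+RAW-TW pair. In the other pairs of libraries of 1 group it reached between 23.6 and 146 at high counts. Each near-identical pair was therefore counted as 1 sample, which left n = 3 for OVX, n = 2 for sham, n = 2 for MSC, n = 1 for MSC+RAW-TW and n = 2 for MSC+RAW-LPS-TW. Levels are given as CPM, counts scaled to library size by the TMM method. Differences are log2 fold changes with their SE from edgeR's quasi-likelihood F-test, and a gene passed where its p, adjusted by Benjamini-Hochberg over all genes tested, was 0.05 or less.

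The labelled cell types were checked against marker genes. Of 15 macrophage markers, 14 reached 1 CPM in each BMM library, with Cd163 below it, and their summed levels were 41089 to 60153 CPM. In the MSC experiment 12 to 14 of 14 stromal markers reached 1 CPM in each library, with summed levels of 3650 to 5221 CPM, and Thy1, a defining surface marker, lay at a mean of 0.371 CPM in MSC. All 15 macrophage markers also reached 1 CPM in each MSC library, with summed levels of 14585 to 34373 CPM, led by Lyz2. Means in MSC, sham and OVX were 1110, 1060 and 939 CPM for Csf1r and 565, 359 and 376 CPM for Cd68. For Adgre1 they were 548, 2100 and 925 CPM. In the BMM libraries the stromal markers summed to between 8106 and 9411 CPM, and Thy1 had means of 67.6 CPM in sham and 58.2 CPM in OVX. Both lists were expressed in both experiments, so these markers did not set the labelled cell types apart. From which of these cells the 10 genes were read was not tested. In bulk samples, fewer cells of a type and less RNA per cell cannot be told apart.

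Between genes, levels were compared per kilobase of gene length (RPKM). Fis1, an outer membrane adaptor of fission, was first and Bnip3l, a mitophagy receptor also called NIX, was second in all 5 groups. The mean of Fis1 was 76.9 ± 3.48 RPKM in sham (SD, n = 2), 50.1 ± 9.36 in OVX (n = 3), 25.8 ± 1.34 in MSC (n = 2) and 36.6 ± 6.31 in MSC+RAW-LPS-TW (n = 2), and it was 52.6 RPKM in the 1 MSC+RAW-TW sample. Bnip3l lay at 23.1 ± 5.09 RPKM in sham and 34.5 ± 3.92 in OVX, clear of Fis1 in both. In OVX, Pink1 at 17.1 RPKM, Fundc1 at 16.3, Bnip3 at 13.5 and Mff at 12.4 followed, and neighbours in that stretch of the order did not differ beyond their SDs. In sham, Dnm1l was the last of the 10 at 3.38 ± 0.0335 RPKM, next to Opa1 at 3.59 and Mfn1 at 3.72.

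Of the 10 genes, Bnip3 changed place most among the MSC groups. It was last in MSC, at 3.61 ± 0.757 RPKM, and last in MSC+RAW-TW, at 2.30 RPKM, but in MSC+RAW-LPS-TW, at 18.4 ± 2.45 RPKM, only Fis1 and Bnip3l were above it. There Bnip3l was at 20.8 RPKM, within 1 SD of Bnip3. Pink1 was next to last in MSC, at 4.89 RPKM, and last in MSC+RAW-LPS-TW, at 3.34, but above 4 others in MSC+RAW-TW, at 7.92, whereas in both BMM groups it was next after Bnip3l. Levels of the BMM and MSC tables were scaled separately and were not tested against each other.

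**Figure D1:**
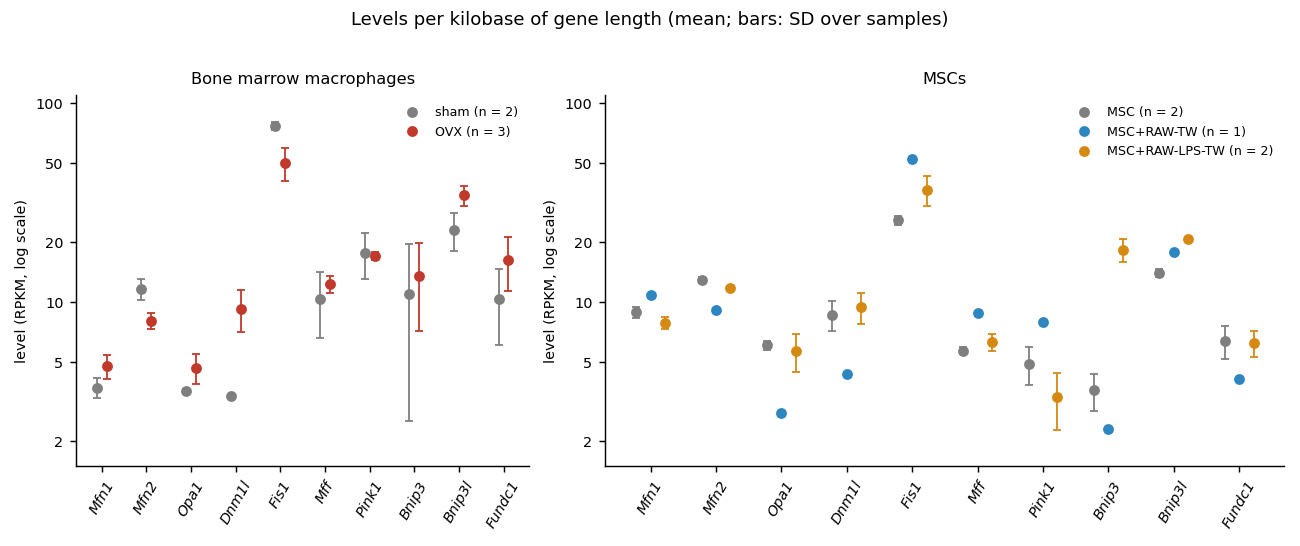
Mean level of each gene per kilobase of gene length (RPKM, log axis) in the 2 BMM groups and the 3 MSC groups, with bars for the SD over samples and no bar for MSC+RAW-TW, which counts as 1 sample. Fis1 was the highest gene in every group, at up to 76.9 RPKM in sham, and Bnip3 moved from 3.61 RPKM in MSC to 18.4 RPKM in MSC+RAW-LPS-TW.

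In BMMs, Dnm1l alone of the 10 genes passed the test, and it was higher in OVX than in sham. Among all genes tested 13.1% passed, 7.25% as higher and 5.83% as lower. Neither a fusion gene nor a mitophagy gene passed. The number that passed was 0 without OVX replicate 2 and 4 without sham replicate 1. The latter fit leaves sham with 1 sample, assumed to vary like OVX. The median log2 fold change of the 10 genes was 0.32, against -0.01 over all genes. It was 0.00, against -0.02, once the GC content and length trends described below were removed.

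Dnm1l makes DRP1, the GTPase that constricts mitochondria at division sites, and lies at chr16:16312230-16358959 on the minus strand. Its level was 61.2, 44.8 and 39.0 CPM in OVX replicates 1 to 3 and 17.7, 17.9 and 17.1 CPM in sham replicates 1 to 3. Every OVX library lay above every sham library, and the sham libraries were close together. The means were 48.3 ± 11.5 CPM in OVX (SD, n = 3) and 17.6 ± 0.174 CPM in sham (n = 2), a log2 fold change of 1.45 ± 0.24 (SE), or 2.74-fold, with an adjusted p of 0.00956. Leaving out OVX replicate 2 kept the change at 1.52 but took the adjusted p to 0.0531. The column headers place OVX replicate 2 and sham replicate 2 in one run of library identifiers and the other BMM libraries in another, and OVX lay above sham within each, at 44.8 against 17.9 CPM and at 39.0 and 61.2 against 17.1 and 17.7 CPM. The near-identical sham replicates 2 and 3, counted as 1 sample, stand in different runs, so both comparisons draw on that sample. Markers of other cells differed between the groups as well. Summed macrophage markers were 41089 to 45529 CPM in OVX and 55503 to 60153 CPM in sham, osteoclast markers 367 to 375 and 710 to 834 CPM, and neutrophil markers 1212 to 1341 and 828 to 955 CPM. Lyz2 made up most of the macrophage sum, with a mean of 37682 CPM in OVX. Of the macrophage markers 2 were higher in OVX, Mrc1 and Cx3cr1, and 6 lower, and of the osteoclast markers 1 was higher, Atp6v0d2, and 5 were lower. The neutrophil sum was mostly S100a8 and S100a9, and 1 of the 10 markers passed, as higher, while their log2 fold changes had a median of 0.38. S100a8, S100a9, Ltf, Ngp, Ly6g and Retnlg had higher means in OVX, and Elane, Mpo, Camp and Mmp8 had lower ones. The part of these cells in the change of Dnm1l was not tested.

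The BMM libraries differed along the GC content of genes, and Dnm1l has the lowest GC content of the 10, at 40.6%. Spearman's rho of a gene's GC content with its level relative to its mean, taken across 10310 genes that are not independent replicates, was between -0.718 and -0.405 in the OVX libraries and between 0.244 and 0.651 in the sham libraries. After the GC content and length trends of each library were removed, the change of Dnm1l was 0.60 ± 0.15 on the log2 scale, or 1.52-fold, with an adjusted p of 0.0635. With these trends removed 0 of the 10 genes passed by edgeR, 1 had an unadjusted p under 0.05, and the genes passing in all changed from 1216 higher and 977 lower to 365 higher and 649 lower.

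The other fission genes did not pass. Fis1 was at 78.0, 104 and 75.1 CPM in OVX and 136, 127 and 128 CPM in sham, so that each OVX library lay below each sham library. Its log2 fold change was -0.62 ± 0.20 with an adjusted p of 0.0775, and DESeq2 put it past the threshold at 0.0388. Mff, the adaptor that recruits DRP1 to the outer membrane, was at 134, 118 and 111 CPM in OVX and 128, 79.0 and 71.7 CPM in sham. Sham replicate 1 lay among the OVX libraries, and the change was 0.25 ± 0.24 (adjusted p = 0.537).

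The ratio of Fis1 to Dnm1l, taken per kilobase in each library, was 3.87, 7.07 and 5.85 in OVX and 23.3, 21.5 and 22.8 in sham. These ratios come from counts as deposited, and the genes have GC contents of 54.3% and 40.6%. With the GC and length trends removed neither passed, at -0.29 for Fis1 (adjusted p = 0.36) and 0.60 for Dnm1l. The summed level of the 3 fission genes divided by that of the 3 fusion genes did not separate them, at 3.73, 5.07 and 3.57 in OVX and 5.45, 4.21 and 4.23 in sham.

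Of the fusion genes, Mfn2 was at 46.0, 38.1 and 41.8 CPM in OVX and 55.2, 66.1 and 64.9 CPM in sham. The libraries did not overlap, and the log2 fold change of -0.53 ± 0.18 did not pass at an adjusted p of 0.0926. Mfn1, the other mitofusin, was at 28.4, 25.7 and 33.7 CPM in OVX and 20.9, 25 and 24.1 CPM in sham, a change of 0.36 ± 0.20 (adjusted p = 0.269). The ratio of Mfn2 to Mfn1 per kilobase was 1.91, 1.75 and 1.46 in OVX and 3.11, 3.11 and 3.17 in sham on the counts as deposited, but with the GC and length trends removed the changes were -0.21 for Mfn2 (adjusted p = 0.511) and 0.03 for Mfn1 (adjusted p = 0.954). Opa1, which fuses inner membranes and holds cristae in shape, was at 43.8, 35.7 and 31.4 CPM in OVX and 27.9, 27.7 and 29.4 CPM in sham. Its change was 0.38 ± 0.20 (adjusted p = 0.245), and -0.02 with the GC and length trends removed.

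Among the mitophagy genes, sham replicate 1 stood apart from sham replicates 2 and 3. Bnip3, a receptor that binds LC3 on autophagosomes, was at 44.8, 30.9 and 16.0 CPM in OVX and 38.7, 10.6 and 12.2 CPM in sham. Fundc1, another such receptor, was at 50.03, 38.5 and 26.7 CPM in OVX and 31.5, 17.9 and 16.8 CPM in sham. For both genes sham replicate 1 fell inside the OVX range. With all libraries the log2 fold changes were 0.28 ± 0.53 for Bnip3 (adjusted p = 0.762) and 0.65 ± 0.33 for Fundc1 (adjusted p = 0.221). Without sham replicate 1, which leaves sham with 1 sample, they were 1.41 (adjusted p = 0.0475) and 1.15 (adjusted p = 0.033), and without OVX replicate 1 that of Bnip3 was -0.10.

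Bnip3l was at 147, 135 and 117 CPM in OVX and 103, 73.1 and 77.6 CPM in sham, with no overlap. Its log2 fold change of 0.57 ± 0.21 did not pass (adjusted p = 0.108), though in the fit with 1 sham sample, without sham replicate 1, it was 0.81 (adjusted p = 0.0391) and 0.04 with the GC and length trends removed (adjusted p = 0.911). The product of Bnip3l clears mitochondria from maturing red cells. The defining erythroid marker Slc4a1 was at 0 in the BMM libraries, and the 11 erythroid markers matched summed to between 43.3 and 95.1 CPM, most of it Tfrc. Between 3 and 5 of the 11 reached 1 CPM in each library, and Hba-a1 had means of 2.83 CPM in sham and 2.49 CPM in OVX. Pink1, whose kinase accumulates on depolarised mitochondria, was at 43.3, 47.8 and 45.9 CPM in OVX and 56.1, 40.4 and 37.1 CPM in sham. The groups overlapped, with a change of -0.06 ± 0.20 (adjusted p = 0.886).

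**Figure D2:**
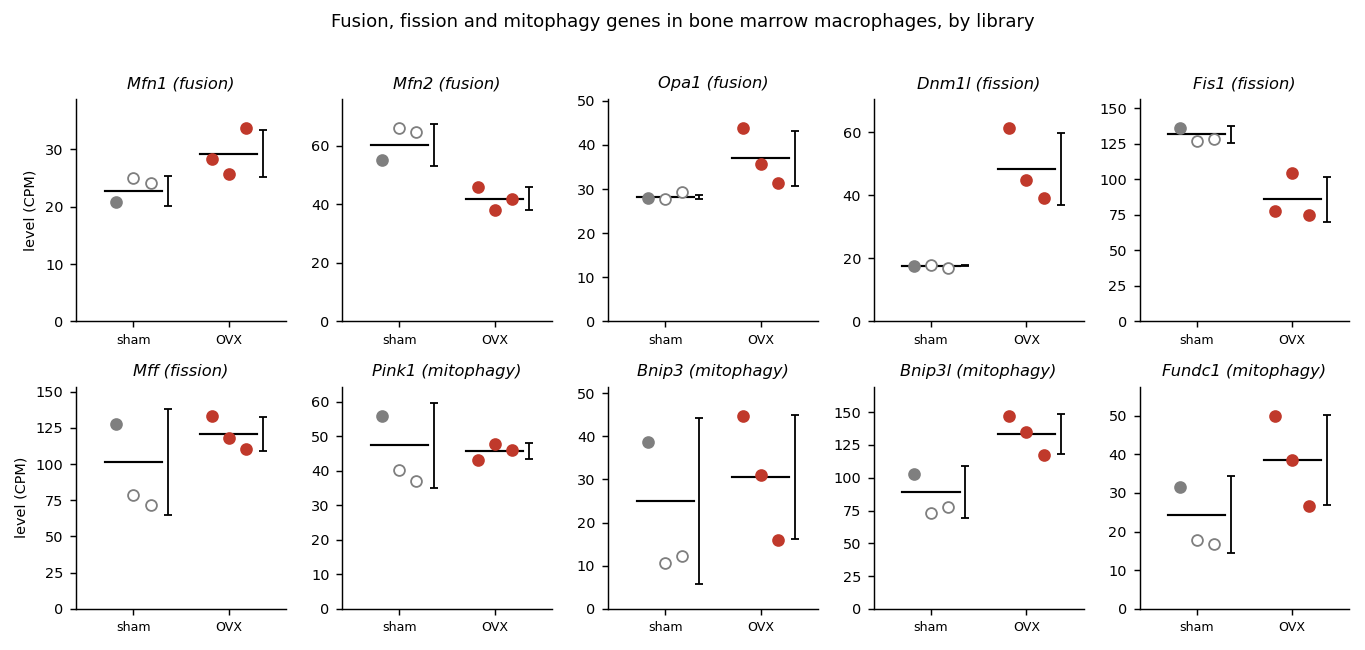
Level of each gene in CPM in the 3 sham and 3 OVX libraries of BMMs, with the mean as a line and the SD over samples as a bar beside it. Open points are sham replicates 2 and 3, which count as 1 sample. Dnm1l was at 39.0 to 61.2 CPM in OVX and at 17.1 to 17.9 CPM in sham, and the sham point that stands apart for Mff, Bnip3 and Fundc1 is replicate 1.

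The genes that act with these 10 were counted from lists, against 7.25% of all genes higher and 5.83% lower in OVX. Of 30 regulators of fusion and fission, 29 were tested in BMMs, and 2 were higher and 0 lower in OVX, with a median log2 fold change of -0.14. These were Yme1l1, the protease that cleaves OPA1, at 1.56 ± 0.29 (adjusted p = 0.0138), and Miga1, at 1.15 ± 0.25 (adjusted p = 0.0221). Of 20 other mitophagy receptors and adaptors, 19 were tested, and Tax1bp1 and Usp15 were higher and Optn and Fkbp8 lower in OVX, with a median of -0.07. Tax1bp1 and Optn encode receptors that bring ubiquitin-marked cargo to autophagosomes. Of 26 autophagosome core genes, Rb1cc1, which encodes the FIP200 scaffold of the ULK1 complex, was higher at 1.84 ± 0.23 (adjusted p = 0.00545) and Atg7 was lower at -0.67 ± 0.17 (adjusted p = 0.0394). Of 19 genes that follow mitochondrial content, Hspd1, the matrix chaperonin, was the 1 that passed, at 0.80 ± 0.22 (adjusted p = 0.0481). After removal of the GC and length trends, Optn at -0.91 (adjusted p = 0.0316) and Rb1cc1 at 0.78 (adjusted p = 0.03) still passed, and the other genes of this paragraph did not. Rb1cc1 also passed in all 6 fits that left out 1 library. Yme1l1, Tax1bp1 and Usp15 were lost without OVX replicate 2, and Miga1, Optn, Fkbp8 and Hspd1 without any 1 of the OVX replicates. Atg7 was lost without any 1 of those and without sham replicate 1.

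Bnip3 is a textbook target of the hypoxia-inducible factors (HIFs), which bind the core sequences ACGTG and GCGTG near target genes. RefSeq promoter sequences on GRCm38.p6, 300 bases around each annotated start, were found for 9 of the 10 genes. None was found for Bnip3l, which was therefore not searched for the motifs. The motif ACGTG, read on both strands so that CACGT counts as well, was present in a promoter of 2 of them, Bnip3 and Mfn2. It was present in 19.6% of all 32851 promoters of the same length, in 19 of the 34 promoters (55.9%) of the listed HIF targets found there, and, counted by gene, in a promoter of 16 of these 22 targets (72.7%). GCGTG, the other form of the core, was present in a promoter of 5 of these 9 genes, namely Mfn2, Dnm1l, Fis1, Pink1 and Bnip3, in 32.4% of all promoters, in 52.9% of those of the HIF targets and, by gene, in 15 of the 22 targets (68.2%). The 9 genes are counted by gene, some with more than 1 promoter, whereas the shares of all promoters are by promoter and not directly comparable. The 250 bases before the Bnip3 start, chr7:138909507-138909756 on the minus strand, are shown because Bnip3 had the largest change of the 10 in MSC+RAW-LPS-TW. The capitals mark CACGTG, in which a match on either strand overlaps the other and which begins 108 bases before the start.
Bnip3: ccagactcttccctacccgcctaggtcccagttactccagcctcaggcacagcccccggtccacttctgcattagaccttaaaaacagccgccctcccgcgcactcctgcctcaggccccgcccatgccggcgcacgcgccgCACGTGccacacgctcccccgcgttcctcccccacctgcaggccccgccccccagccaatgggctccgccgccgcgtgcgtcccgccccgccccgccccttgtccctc

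For comparison, 25 bases around a match, in capitals, are given for Mfn2, which holds the motif and did not pass between MSC+RAW-LPS-TW and MSC, and for the HIF targets Pfkfb3 and Vegfa, which had the largest changes of their list. They lie at chr4:147904686-147904710, chr2:11502129-11502153 and chr17:46025360-46025384, all on the minus strand. A match is a description of the letters in this window and not of binding.
Mfn2: ccggctagtgACGTGttgggtgtga
Pfkfb3: cccttctctcCACGTgaaagggggc
Vegfa: agtgcgtgccCACGTcagagagcaa

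In MSC+RAW-LPS-TW, set against MSC, 3 of the 10 genes passed, namely Bnip3, Bnip3l and Fis1, and all 3 were higher. Of all genes tested 20.9% passed, 11.1% as higher and 9.85% as lower. Without MSC replicate 1 or 2, only MSC+RAW-LPS-TW keeps more than 1 sample, and the other groups are assumed to vary like it. Bnip3 kept its call there, and Bnip3l and Fis1 did not. None of the 3 fusion genes passed, and the median log2 fold change of the 10 genes was 0.05, against -0.01 over all genes. Bnip3 had the largest change of the 10 in this comparison.

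Bnip3 lies at chr7:138890836-138909519 on the minus strand. Its level was 9.39 and 6.96 CPM in MSC replicates 1 and 2, 5.30 and 5.14 CPM in the MSC+RAW-TW libraries, and 45.5 and 37.7 CPM in MSC+RAW-LPS-TW replicates a and b, letters that only name the libraries. Both MSC+RAW-LPS-TW libraries lay far above the other 4. The means were 8.18 ± 1.72 CPM in MSC (SD, n = 2) and 41.6 ± 5.54 CPM in MSC+RAW-LPS-TW (n = 2), a log2 fold change of 2.34 ± 0.20, or 5.06-fold (adjusted p = 4.3e-07). It passed in each of the 6 fits that left out 1 library, at 2.15 to 2.58, and was 2.40 with the GC and length trends removed. The column headers hold 2 runs of library identifiers with 1 library of each MSC group, and Bnip3 rose from 9.39 to 45.5 CPM in one run and from 6.96 to 37.7 CPM in the other.

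Bnip3l was at 52.2 and 55.7 CPM in MSC and 80.2 and 80.3 CPM in MSC+RAW-LPS-TW. The libraries of each group lay close together and did not overlap, and the change was 0.57 ± 0.15, or 1.49-fold (adjusted p = 0.0109). It did not pass without MSC replicate 1 (0.53, adjusted p = 0.167) or without MSC replicate 2 (0.62, adjusted p = 0.0772). The ratio of Bnip3 to Bnip3l per kilobase was 0.307 and 0.213 in MSC and 0.966 and 0.799 in MSC+RAW-LPS-TW. Fis1 was at 45.9 and 42.7 CPM in MSC and 55.1 and 70.4 CPM in MSC+RAW-LPS-TW, a change of 0.50 ± 0.16, or 1.42-fold (adjusted p = 0.0381). That call was lost without MSC replicate 1 (0.56, adjusted p = 0.135), without MSC replicate 2 (0.45, adjusted p = 0.259) and without MSC+RAW-LPS-TW replicate b (0.32, adjusted p = 0.153).

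Neither of the other mitophagy genes passed. Pink1 was at 11.1 and 15.1 CPM in MSC and 6.90 and 10.9 CPM in MSC+RAW-LPS-TW, a change of -0.55 ± 0.24 (adjusted p = 0.134), which passed at -0.92 without MSC+RAW-LPS-TW replicate b (adjusted p = 0.0116). Fundc1, at 13 and 17.04 CPM against 13.2 and 16.3 CPM, overlapped between the groups, with a change of -0.03 ± 0.21 (adjusted p = 0.954). The fusion genes and both other fission genes had changes between -0.18 and 0.15, with adjusted p from 0.486 upwards. Mfn2, for example, was at 65.4 and 68.8 CPM in MSC and 61.5 and 60.6 CPM in MSC+RAW-LPS-TW (adjusted p = 0.603), and Dnm1l was at 39.4 and 50.7 CPM against 55.2 and 42.9 CPM (adjusted p = 0.704).

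**Figure D3:**
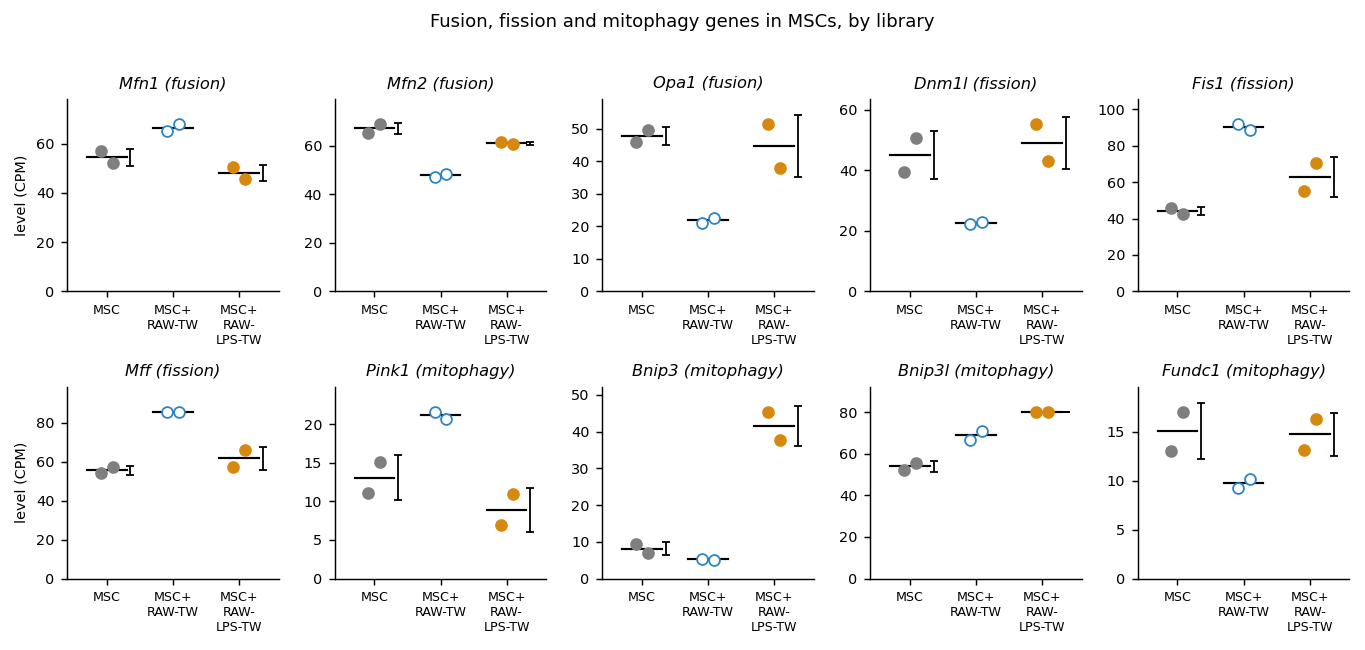
Level of each gene in CPM in the 6 MSC libraries, with the mean as a line and the SD over samples as a bar beside it. Open points are the MSC+RAW-TW libraries, which count as 1 sample. Bnip3 was at 37.7 and 45.5 CPM in MSC+RAW-LPS-TW and below 10 CPM in the other libraries, and Opa1 and Dnm1l were lowest in MSC+RAW-TW.

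Of 25 other HIF targets listed, 20 were higher and 1 was lower in MSC+RAW-LPS-TW when MSC was the reference, where 11.1% of all genes were higher and 9.85% lower. Their median log2 fold change was 1.05, against -0.01 over all genes, and the number of higher genes was 17 to 22 in the fits that left out 1 library. Vegfa, the angiogenic growth factor, was at 59.97 and 69.8 CPM in MSC and 342 and 359 CPM in MSC+RAW-LPS-TW, a change of 2.43 ± 0.16 (adjusted p = 1.54e-08). Pfkfb3, which drives glycolysis, was at 82.3 and 68.1 CPM in MSC and 365 and 350.0 CPM in MSC+RAW-LPS-TW, a change of 2.25 ± 0.16 (adjusted p = 4.42e-08). The lower gene was Pfkfb4, at -0.58 ± 0.16 (adjusted p = 0.0181). The call of Pfkfb4 was lost without MSC replicate 1 or 2. In BMMs 2 genes of that list were higher and 5 were lower in OVX, where 7.25% and 5.83% of all genes were, the median being -0.12. Leaving out 1 library gave 0 to 2 higher and 1 to 5 lower, and removing the trends gave 1 and 2. Ndrg1, a stress-response gene, had the largest fall there, from between 368 and 439 CPM in sham to between 38.3 and 61.9 CPM in OVX (-2.96 ± 0.24, adjusted p = 0.00179).

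**Figure D4:**
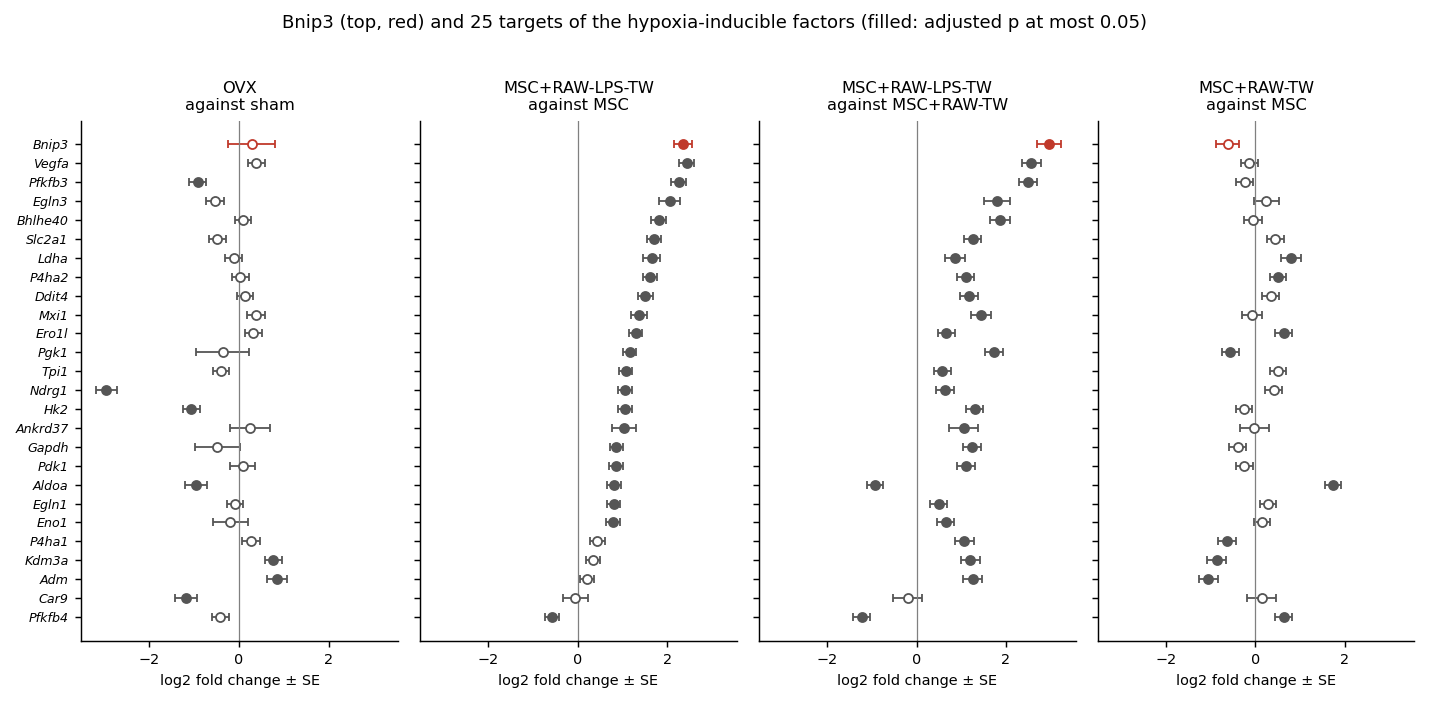
Log2 fold changes with their SE of Bnip3 (top row) and of 25 other HIF targets in the 4 comparisons, filled where the adjusted p was at most 0.05. Between MSC+RAW-LPS-TW and MSC, 20 of the 25 were higher and Bnip3 changed by 2.34, next to Vegfa at 2.43, whereas between OVX and sham 2 were higher and 5 lower.

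Markers of other cells differed between these groups too. The 15 macrophage markers summed to 27081 and 27323 CPM in MSC and to 14585 and 15006 CPM in MSC+RAW-LPS-TW, most of it Lyz2, which fell from a mean of 21663 to 9570 CPM. Of the 15, 2 were higher and 8 lower, and Adgre1 rose from 548 to 1470 CPM. The 10 neutrophil markers summed to 18.1 and 23.4 CPM in MSC and to 403 and 581 CPM in MSC+RAW-LPS-TW, mostly S100a8. Of the 4 that passed the filter on low counts 3 were higher, with a median of 3.82. Camp rose from a mean of 0.592 to 34.1 CPM and Mmp8 from 6.70 to 29.5 CPM, and the defining neutrophil genes Elane, Mpo and Ltf were at or near 0 in both groups. The 9 osteoclast markers summed to 151 and 144 CPM in MSC and 862 and 930 CPM in MSC+RAW-LPS-TW, mostly Mmp9. Of the 7 tested, 2 were higher and 1 lower, with a median log2 fold change of 0.02. Atp6v0d2 fell from a mean of 17.3 to 3.03 CPM. The stromal markers summed to 3890 and 3894 CPM in MSC and 5221 and 5195 CPM in MSC+RAW-LPS-TW, with 6 of the 14 higher, Dcn and Nt5e among them, and 1 lower. The part of these markers' cells in the changes of Bnip3, Bnip3l and Fis1 was not tested.

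The lists of genes that act with the 10 were also counted in the comparison of MSC+RAW-LPS-TW with MSC, in which 20.9% of all genes passed. Of 30 fusion and fission regulators, 1 was higher, Yme1l1 at 0.46 ± 0.15 (adjusted p = 0.046), and 2 were lower, Parl, a rhomboid protease of the inner membrane, at -0.48 ± 0.15 (adjusted p = 0.0317), and Mtfp1, a fission factor of the inner membrane, at -1.65 ± 0.34 (adjusted p = 0.00197). Of 19 other mitophagy genes tested, 3 were higher and 3 lower. Tbk1, the kinase that activates autophagy adaptors, was higher at 0.68 ± 0.15 (adjusted p = 0.00409), and Fbxo7 was lower at -0.73 ± 0.20 (adjusted p = 0.0148). Mtfp1 was chosen for naming after its values were seen. Of 26 autophagosome core genes, 2 were higher and 3 lower, and of 19 mitochondrial content genes 3 were higher, led by Timm23 at 0.90 ± 0.19 (adjusted p = 0.00216). When 1 library was left out, the autophagosome counts ran from 0 to 2 higher and 0 to 8 lower and the content counts from 2 to 6 higher and 0 to 3 lower. Those of the regulators were 0 to 1 and 1 to 3, and those of the other mitophagy genes 0 to 3 and 1 to 3. Timm23 and Mtfp1 passed in all 6 fits that left out 1 library. Without MSC replicate 1, Yme1l1 and Parl did not pass, without MSC replicate 2 neither did Yme1l1, Parl, Tbk1 and Fbxo7, and Yme1l1 was also lost without MSC+RAW-LPS-TW replicate a and Fbxo7 without replicate b.

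The comparisons with MSC+RAW-TW share samples with the one above and with each other. They rest on 1 sample of MSC+RAW-TW, which was assumed to vary like the other groups. Leaving out 1 of its near-identical libraries kept the other, so no fit that left out 1 library varied this sample. In MSC+RAW-LPS-TW, with MSC+RAW-TW as the reference, 7 of the 10 genes passed, 3 as higher and 4 as lower. Of all genes 40.2% passed, 21.3% as higher and 18.9% as lower. Fewer of the 10 passed without MSC replicate 1 or 2, where only the MSC+RAW-LPS-TW libraries gave a spread. Between MSC+RAW-TW and MSC, 4 passed, 2 as higher and 2 as lower, where 28.6% of all genes did, 13.8% as higher and 14.8% as lower. With MSC+RAW-LPS-TW replicate a or b left out, more passed, both among the 10 and among all genes. Only the MSC libraries gave a spread in those fits. The median over all genes was itself shifted, to 0.14 in the first and -0.13 in the second on the log2 scale, and to 0.01 and 0.00 with the GC and length trends removed. With the trends removed, the genes passing in all were 3533 higher and 3807 lower in the first, where they had been 4363 and 3871, and 2452 higher and 1645 lower in the second, where they had been 2836 and 3026. Of the 10 genes, 4 then passed in the first and 6 in the second.

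Bnip3 was the gene with the largest change against MSC+RAW-TW as well, at 41.6 CPM in MSC+RAW-LPS-TW and 5.22 CPM in MSC+RAW-TW. The log2 fold change was 2.96 ± 0.27, or 7.8-fold (adjusted p = 1.03e-06), it passed in all 6 fits that left out 1 library, and it was 2.76 with the trends removed (adjusted p = 6.26e-06). Between MSC+RAW-TW and MSC it did not pass, at -0.62 ± 0.25 (adjusted p = 0.0731). The difference passed without MSC replicate 2 and with MSC+RAW-LPS-TW replicate a or b left out, and the range over the 6 fits was -0.82 to -0.39. Of the 25 other HIF targets, 22 were higher and 2 lower in MSC+RAW-LPS-TW relative to MSC+RAW-TW, with a median of 1.10. In MSC+RAW-TW against MSC, 5 were higher and 4 lower, with a median of 0.14. With the trends removed these were 2 and 2, with a median of 0.01, and leaving out 1 library gave 1 to 7 higher and 2 to 5 lower.

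Opa1 and Dnm1l were lowest in MSC+RAW-TW. Opa1 was at 45.8 and 49.7 CPM in MSC, 21.1 and 22.5 CPM in MSC+RAW-TW and 51.4 and 37.8 CPM in MSC+RAW-LPS-TW. Its log2 fold change was -1.11 ± 0.22 in MSC+RAW-TW against MSC (adjusted p = 0.00208). The libraries with stimulated RAW264.7 cells lay above MSC+RAW-TW by 1.01 ± 0.22 (adjusted p = 0.0019). Dnm1l was at 22.4 and 22.8 CPM in MSC+RAW-TW, below all 4 other libraries, with a change of -0.97 ± 0.23 against MSC (adjusted p = 0.00546). MSC+RAW-LPS-TW lay above it by 1.09 ± 0.23 (adjusted p = 0.00136). Over the 6 fits that left out 1 library, Opa1 ranged from -1.18 to -1.05 and from 0.78 to 1.22 in these comparisons, in that order. Dnm1l ranged from -1.14 to -0.78 and from 0.91 to 1.27. None of these fits varied the MSC+RAW-TW sample.

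GC content separated these libraries as well. Across 10427 genes, rho of GC content with relative level was 0.526 and 0.52 in the MSC+RAW-TW libraries and between -0.428 and -0.241 in the other libraries. With the trends removed, Dnm1l in MSC+RAW-TW was -0.07 against MSC (adjusted p = 0.83) and 0.15 in the comparison of MSC+RAW-LPS-TW with it (adjusted p = 0.554). Opa1, with a GC content of 45.1%, still passed against MSC, at -0.58 ± 0.18 (adjusted p = 0.0447), and did not pass in the other comparison, at 0.45 (adjusted p = 0.0765).

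Fis1 and Mff were highest in MSC+RAW-TW. Fis1 was at 91.9 and 88.5 CPM there, above all other libraries, 1.05 ± 0.19 above MSC on the log2 scale (adjusted p = 0.00114), and MSC+RAW-LPS-TW differed from it by -0.55 ± 0.19 (adjusted p = 0.0333). The first call passed in all 6 fits that left out 1 library. The second was lost with the trends removed, at -0.16 (adjusted p = 0.477), and without MSC replicate 1 or 2, MSC+RAW-LPS-TW replicate a or MSC+RAW-TW replicate a, with a range of -0.73 to -0.37. Mff was at 54.0 and 57.3 CPM in MSC, 85.7 and 85.8 CPM in MSC+RAW-TW and 57.5 and 66.0 CPM in MSC+RAW-LPS-TW. The change of Mff was 0.65 ± 0.18 in MSC+RAW-TW against MSC (adjusted p = 0.0151), and MSC+RAW-LPS-TW differed from MSC+RAW-TW by -0.50 ± 0.18 (adjusted p = 0.0396). With the trends removed both were larger, at 1.37 (adjusted p = 0.000743) and -1.29 (adjusted p = 0.000187), with 2.58-fold and 2.44-fold differences. Without the trends removed, the first was lost without MSC replicate 1 (0.61, adjusted p = 0.112) or 2 (0.69, adjusted p = 0.07), and the second passed only without MSC+RAW-LPS-TW replicate b, with a range of -0.60 to -0.39 over the 6 fits.

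Mfn1 was at 56.9 and 52.0 CPM in MSC, 65.2 and 67.9 CPM in MSC+RAW-TW and 50.5 and 45.7 CPM in MSC+RAW-LPS-TW, and Mfn2 was at 47.2 and 48.3 CPM in MSC+RAW-TW, below all other libraries. Against MSC, Mfn1 in MSC+RAW-TW did not pass at 0.31 (adjusted p = 0.207), and passed with the trends removed, at 0.79 (adjusted p = 0.00618). Mfn1 was lower in MSC+RAW-LPS-TW, by -0.49 ± 0.18 against MSC+RAW-TW (adjusted p = 0.0425), and by -0.96 with the trends removed (adjusted p = 0.000627). The call on the counts as deposited was lost without MSC replicate 1 or 2, MSC+RAW-LPS-TW replicate b or MSC+RAW-TW replicate b. A fit of these groups alone also lost Mfn1 (adjusted p = 0.0867), Fis1 (0.0537) and Mff (0.083). Mfn2 did not pass in either comparison with the counts as deposited, at 0.33 (adjusted p = 0.161) and -0.47 (adjusted p = 0.0701), though the second passed with MSC+RAW-LPS-TW replicate a or b left out. With the trends removed it passed in both, at 0.64 (adjusted p = 0.0106) and -0.74 (adjusted p = 0.0101). The ratio of Mfn2 to Mfn1 per kilobase was 1.35 and 1.56 in MSC, 0.852 and 0.836 in MSC+RAW-TW, and 1.43 and 1.56 in MSC+RAW-LPS-TW.

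Pink1 was highest in MSC+RAW-TW, at 21.6 and 20.7 CPM, and lowest in MSC+RAW-LPS-TW. The log2 difference between these groups was -1.28 ± 0.28 (adjusted p = 0.00206), it held in all 6 fits that left out 1 library, and it was -0.71 (adjusted p = 0.053) with the trends removed. The GC content of Pink1 is 57.6%, the highest of the 10. Against MSC, Pink1 in MSC+RAW-TW was 0.73 ± 0.28 (adjusted p = 0.0663), which passed without MSC replicate 2 and with MSC+RAW-LPS-TW replicate a or b left out. Bnip3l was at 66.5 and 71.0 CPM in MSC+RAW-TW, between the other groups, and did not pass against either (adjusted p = 0.127 and 0.397), though with the trends removed it was 0.96 above MSC (adjusted p = 0.00214). Fundc1, at 9.28 and 10.2 CPM in MSC+RAW-TW, was below all other MSC libraries and did not pass, with an adjusted p of 0.0963 against MSC and of 0.0917 when MSC+RAW-LPS-TW was set against it. The first passed with MSC+RAW-LPS-TW replicate a or b left out and the second without replicate a of that group.

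**Figure D5:**
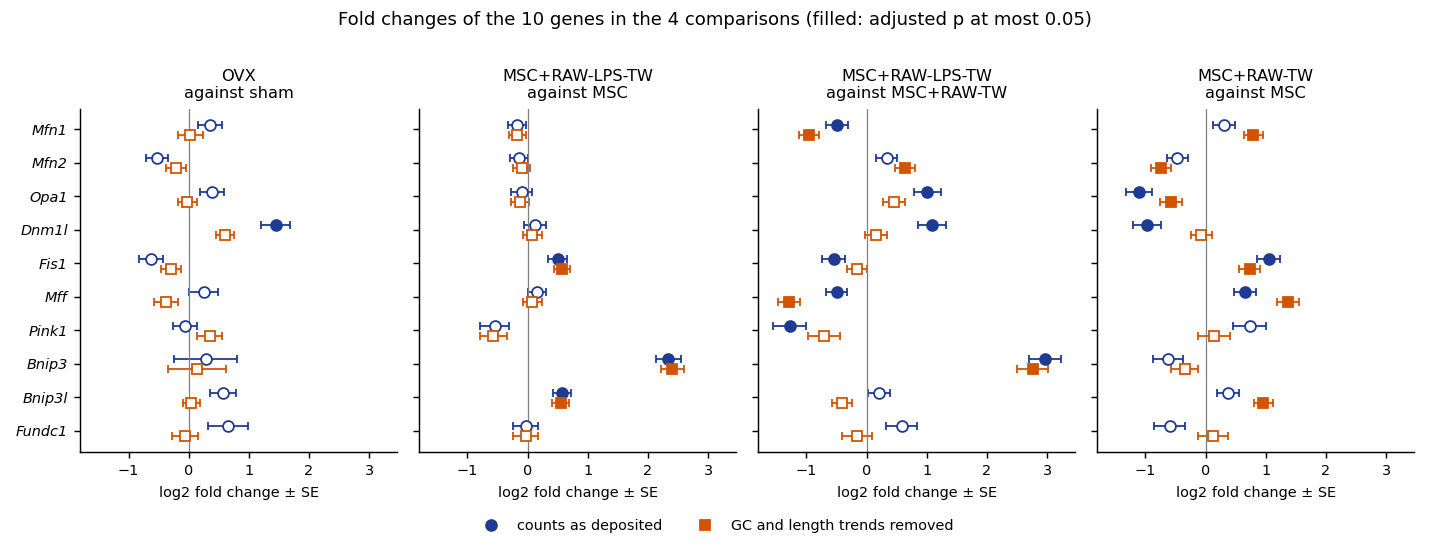
Log2 fold changes with their SE of the 10 genes in the 4 comparisons, from the counts as deposited (circles) and with the GC content and length trends taken out (squares), filled where the adjusted p was at most 0.05. Bnip3 stayed above 2.3 in both comparisons of MSC+RAW-LPS-TW, while Dnm1l went from 1.45 to 0.60 between OVX and sham.

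The same lists were counted in the comparisons with MSC+RAW-TW, in which 28.6% of all genes passed against MSC and 40.2% in the other. Of 30 fusion and fission regulators, 12 were higher and 4 lower in MSC+RAW-TW against MSC, with a median of 0.39, with 6 (without MSC replicate 1) to 13 higher and 2 to 7 lower over the fits that left out 1 library. In MSC+RAW-LPS-TW relative to MSC+RAW-TW, 5 were higher and 12 lower, and the median was -0.39. Phb2, an inner membrane prohibitin, was higher in MSC+RAW-TW at 1.42 ± 0.22 (adjusted p = 0.000397), and so was Mief2, which recruits DRP1, at 1.24 ± 0.22 (adjusted p = 0.000957), though with the trends removed Mief2 did not pass (0.59, adjusted p = 0.067). With the trends removed, 4 were higher and 1 lower in the first comparison, and 1 higher and 8 lower in the second. Of 26 autophagosome core genes, 7 were higher and 6 lower in the first and 5 higher and 8 lower in the second, and with the trends removed 5 and 2 in the first and 3 and 9 in the second. Fewer were higher in the first without MSC replicate 2, a fit that leaves MSC with 1 sample. Gabarap, of the family that mitophagy receptors bind, was at 600.1 and 571 CPM in MSC, 1594 and 1584 CPM in MSC+RAW-TW and 428 and 671 CPM in MSC+RAW-LPS-TW, with changes of 1.47 ± 0.22 (adjusted p = 0.000397) and -1.56 ± 0.22 (adjusted p = 5.98e-05).

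Of the 19 other mitophagy genes tested, 4 were higher and 3 lower in MSC+RAW-TW against MSC, with 1 to 4 higher and 1 to 6 lower when 1 library was left out, and 5 were higher and 5 lower in the comparison of MSC+RAW-LPS-TW with MSC+RAW-TW. These counts became 5 and 2, and 3 and 4, after removal of the trends, and the median of the second went from 0.27 to -0.09. Nipsnap1, which marks damaged mitochondria for autophagy, was at 11.8 and 13.4 CPM in MSC, 23.0 and 25.1 CPM in MSC+RAW-TW and 7.32 and 8.36 CPM in MSC+RAW-LPS-TW, and it passed in all 3 comparisons of the MSC groups. The call against MSC was lost without MSC replicate 1 for MSC+RAW-TW, and without MSC replicate 1 or 2 or MSC+RAW-LPS-TW replicate a for MSC+RAW-LPS-TW. Of 19 mitochondrial content genes, 7 were higher and 1 lower in MSC+RAW-TW against MSC, with a median of 0.40. The number higher was 4 without MSC replicate 1 and 12 without MSC+RAW-LPS-TW replicate b. In the other comparison 1 was higher and 6 lower, the median was -0.26, and 6 to 10 were lower when 1 library was left out. Removing the trends gave 8 higher and 0 lower in the first and 0 higher and 9 lower in the second. Cox4i1, a subunit of cytochrome c oxidase, changed by 1.77 ± 0.24 (adjusted p = 0.000227) and -1.48 ± 0.24 (adjusted p = 0.000174). The summed macrophage markers were 34373 and 33997 CPM in MSC+RAW-TW, of which Lyz2 made up 26491 CPM. The median of the 15 markers was 332 and 338 CPM there and 511 and 575 CPM in MSC, and 5 of them were higher and 5 lower in MSC+RAW-TW, their log2 fold changes having a median of -0.37. After removal of the trends 6 were higher and 1 lower, and that median was 0.18. The 14 stromal markers had a median of -0.18 in MSC+RAW-TW against MSC. In MSC+RAW-LPS-TW relative to MSC+RAW-TW the medians were -0.87 for the macrophage, 0.50 for the stromal and 2.89 for the 4 tested neutrophil markers. The part of these markers' cells in these changes was not tested.

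Reads from places where genes overlap cannot be assigned with certainty. Exons of Bnip3, Dnm1l and Mff overlap genes on the opposite strand over 504, 243 and 195 bases, and the counting strand is not given in the sources used here. The overlapping genes held at most 0, 4 and 74 counts in any library, against at least 167, 283 and 1248 counts for Bnip3, Dnm1l and Mff. Exons of Pink1 overlap Gm27646 and Mir7019 on the same strand over 110 and 69 bases. Both held 0 counts in every library, against at least 230 for Pink1. A pseudogene of Bnip3l held at most 158 counts, against at least 1155 for Bnip3l.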

How the data were processed

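RNA-seq was measured in 12 mouse libraries, 6 of BMMs and 6 of MSCs. The authors isolated poly(A) RNA, made directional libraries, sequenced read pairs, trimmed them with Trim Galore 0.6.7, mapped them to GRCm38 with HISAT2 2.1.0 and counted them with featureCounts 2.0.1, per the submitters' processing notes. Per the file headers, the deposited tables give unnormalized counts by Ensembl gene, 1 column a library, and the exon length of each gene. Of counts from 1 to 20, between 60% and 71.4% were even in each library, and the cause was not tested. The strand setting is not given in the sources used here.

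Positions and names came from GENCODE M21 and promoters from RefSeq on GRCm38.p6. Groups came from the sample labels. Counts were tested with edgeR 4.0.16 in R 4.3.3 (TMM, filterByExpr, quasi-likelihood F-test, two-sided), over 16768 genes in the BMM fit and 20499 in the fit of the 3 MSC groups, with 3 and 2 residual degrees of freedom. Libraries of 1 group were compared by chi-square over genes that held 20 counts or more in both together, and near-identical pairs were summed. RPKM is CPM per kilobase of exon length.

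Tests share 1 estimate of the spread within an experiment. The 10 genes and all lists were chosen with earlier results of these data known. Besides the 10 genes, the text names from each pathway list and comparison up to 2 passing genes of largest rise and 2 of largest fall with a mean of at least 5 CPM. Mtfp1 was added after its values were seen. Some items are not reported here.

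Alternatives were RLE scaling, DESeq2 1.42.0, no filter, each library as its own sample, a replicate block, the 2 groups compared alone, each library left out, counts halved, a fold limit of 2, and lowess trends (span 0.3) on GC content and length removed. A block on the run of library identifiers was added after the data were seen. Fits were tested on simulated data. Tables were handled with python 3.11.15 and pandas 2.3.3, and figures drawn with matplotlib 3.10.9.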

Additional observations from a re-analysis of the deposited data

How the results depend on the processing

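With RLE scaling and with counts halved, all 10 genes of each comparison kept their direction and side of the threshold. The cause of the changes that follow was not tested. Between OVX and sham, the number of the 10 genes that passed was 1 and became 2 with DESeq2, 3 with no filter on low counts, 4 with near-identical libraries as separate samples, 4 with these and the run of library identifiers as a block, and 0 with GC and length trends removed. Leaving out 1 library gave 0 to 4, with 0 without OVX replicate 2 and 4 without sham replicate 1. The 2193 genes passing in all became 3380 with no filter, 4144 with separate samples, 1014 with trends removed, 1419 with a fold limit of 2, and 309 (without OVX replicate 2) to 3376 (without sham replicate 1) over the fits that left out 1 library. With the replicate block and separate samples 7 of the 10 genes and 6318 genes in all passed. Correlations of same-numbered libraries' deviations over 10335 genes were 0.584, -0.0693 and 0.64. OVX replicate 3 also stood at 0.628 with sham replicate 2. Sham replicates 2 and 3 are near-identical, so these values cannot settle whether the numbers pair the samples. Of the log2 fold changes there, Pink1 turned to 0.04 with separate samples, 0.06 with the replicate block, 0.04 with the run block and separate samples and 0.35 with trends removed, and ranged from -0.08 to 0.24 when 1 library was left out. With trends removed Opa1 was -0.02, Mff -0.38 and Fundc1 -0.06. With both near-identical sham libraries left out Mff was -0.08 and Bnip3 -0.34, and Bnip3 ranged from -0.10 to 1.41 when 1 library was left out. In MSC+RAW-LPS-TW against MSC, a fold limit of 2 left 1 of the 10 genes and 2243 genes in all. Leaving out 1 library gave 1 to 3 and 2759 to 5157, and ranges of -0.36 to 0.11 for Opa1, -0.09 to 0.32 for Dnm1l and -0.21 to 0.18 for Fundc1. In MSC+RAW-LPS-TW relative to MSC+RAW-TW, 4 of the 10 passed with trends removed, 4 with these groups alone and 4 with a fold limit of 2, 9 with separate samples (10989 genes in all) and 9 with these and the run block (10937), and 4 to 6 when 1 library was left out. With trends removed Bnip3l was -0.41 and Fundc1 -0.16. In MSC+RAW-TW against MSC, 9 of the 10 and 9312 genes in all passed with separate samples, 9 and 9280 with these and the run block, 7 of the 10 with these groups alone, and 2 and 3360 with a fold limit of 2. Leaving out 1 library gave 3 to 8 and 3587 to 8113, and Fundc1 was 0.13 with trends removed. No fit with a replicate block was made in the MSC experiment, since no pair of its groups shares more than 1 number in the column headers. Levels on TMM-scaled library sizes were 0.878 to 1.1 times those on raw library sizes. The lowest count of the 10 genes in any library was 167.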
